A study of Arabidopsis thaliana with 12 samples.

Results

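The 51 probes described here were among the brightest in wild-type Arabidopsis thaliana of those the platform annotation assigns to exactly 1 gene. The annotation lists 1 gene for 692 of the 3439 probes of the array. These were ranked by the mean deposited intensity over the 6 wild-type samples, and the first 60 were taken. PSBW, LHB1B2, NdhS, PSAN, AT1G74470, PSBY, CUTA, AT5G52810 and PSB27 were then left out of these 60, as the selection rule prescribes. The remaining 51, for 51 of the 691 genes with a probe of their own, are called members below. The members were chosen by their wild-type (WT) values, so WT levels are given as a description, and each difference from WT contains the values used for the choice.

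The series compared total RNA of the psae2 mutant with that of the WT, 6 samples each, both in ecotype Columbia 0. Per the labels psae2 lacks PSI-E2, a peripheral photosystem I protein on the stromal side, where ferredoxin docks. The sources used here give neither the tissue, age and growth conditions nor the nature of the psae2 allele or the array chemistry. Of 14 marker genes of mesophyll, guard cells, phloem, trichomes, roots, flowers and seeds, 0 had a probe of their own, so the tissue was not checked. PSAE2 had none either, so its transcript could not serve as a check of the labels.

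Photosystem I lies in the thylakoid membrane of the chloroplast and passes electrons from plastocyanin to ferredoxin. Most proteins of the chloroplast, including part of photosystem I and nearly all enzymes of its metabolism, are encoded in the nucleus, made in the cytosol and imported. Strongly expressed nuclear genes of green tissue therefore commonly include genes for plastid proteins, beside those for translation, chromatin and general metabolism. The roles named below are general background. They are not in the files, where 46 of the 51 members carry only a locus name.

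Intensities are in the arbitrary units of the deposited table. A probe's brightness depends on the probe as well as on the transcript, so the order of the probes is not an order of transcript abundance. In each array the members, 1.48% of the probes, held 8.81% to 9.42% of the summed intensity in psae2 and 9.29% to 10.3% in the WT. Column sums were 3217 to 3609.5 in psae2 and 2972 to 3552 in the WT. All members lay above a floor, set for each array at the 5th percentile of its values above 0, in all 12 samples. This floor is not a measured limit of detection, and in the WT the choice of bright probes favoured this outcome. The number of arrays limits the precision.

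The members fell off steeply in brightness. AT4G31530, AT4G22830 and AT2G27290 had WT means above 30, and 3 more, AT4G17070, AT5G38360 and AT3G26630, had WT means between 10 and 20. A further 12 lay between 3 and 10, and the other 33 below 3. For comparison, the median over all probes of 1 gene was 0.390 in psae2 and 0.344 in the WT. At the edge of the selection, AT4G17650 and AT1G32730 were the last inside, with WT means of 1.612 and 1.611. PRK and AT3G17550 were the first outside, with 1.59 and 1.57.

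**Figure D1:**
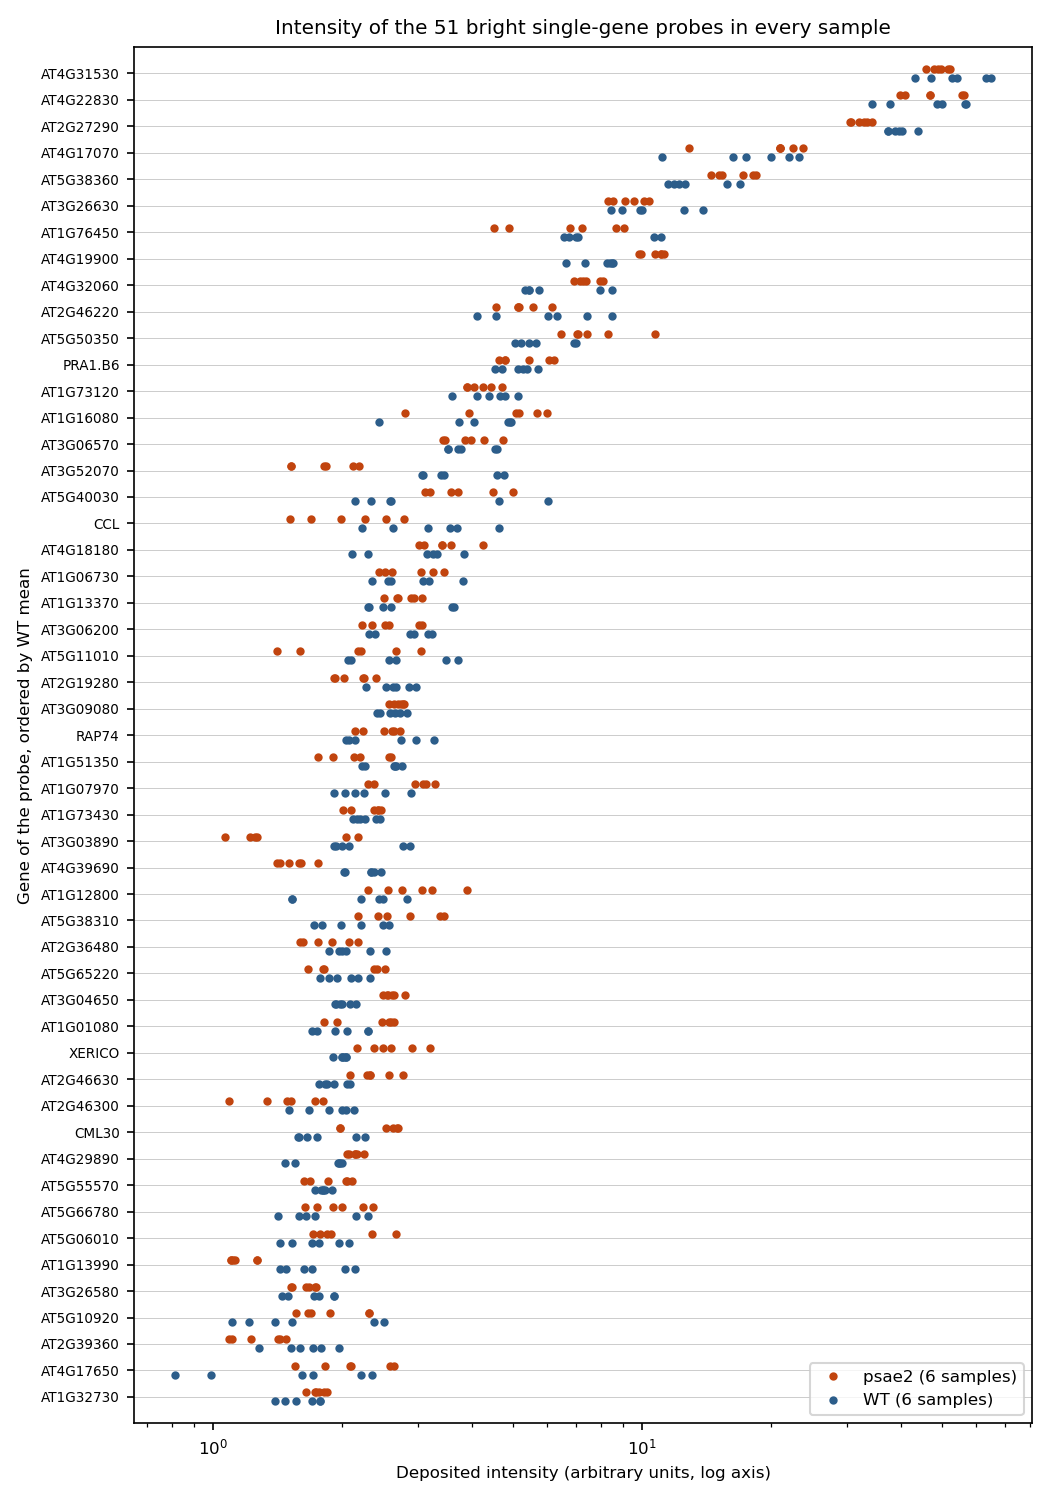
Deposited intensity of each member (log axis, arbitrary units) in every sample, with psae2 above WT in each row and genes ordered by WT mean. AT4G31530, AT4G22830 and AT2G27290 stand above 30, and in AT3G52070, AT4G39690 and AT1G13990 all 6 psae2 points lie left of all 6 WT points.

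The set of bright probes was largely shared by psae2. Of the first 60 by WT mean, 53 were also among the first 60 by psae2 mean, and so were 46 of the 51 members. In single psae2 samples 45 to 47 members were in that sample's first 60, and 42 were in all 6 samples. The 5 members that dropped out of the first 60 by psae2 mean were AT4G39690 (rank 62), AT3G03890 (rank 63), AT2G46300 (rank 65), AT2G39360 (rank 72) and AT1G13990 (rank 83). Their WT ranks were 36, 35, 48, 58 and 54, in the same order. Why they left the first 60 was not tested.

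For the comparison of psae2 with the WT, values were log2-transformed and quantile-normalized. With Benjamini-Hochberg adjustment, limma was fitted to the 3009 entries that were not below the floor in every sample. Within a group, neighbouring numbers (1 with 2, 3 with 4, 5 with 6) mostly gave similar values, as repeats would. This did not hold for every probe: AT4G17070 was at 12.8 in psae2 sample 5 and at 20.9 in psae2 sample 6. Each result was therefore also computed on the means of these pairs, 3 per group. A member is said to have fallen or risen only where the adjusted p was under 0.05 in both fits. Counts at an unadjusted p under 0.05 have no share over all entries beside them and are not results about the members. Fits with sample number as a blocking factor count repeats of a pair as independent. Different scalings were compared because the arrays were not on a common scale. As deposited, the median log2 difference between psae2 and WT over all entries was 0.17. It was 0.01 after quantile normalization and -0.03 after median centring of each array.

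Of the 51 members, 12 passed over 12 samples, 3 higher and 9 lower in psae2. That is 23.5% of the members, beside 22.3% of all entries, so the share was near the background. For higher values alone the background was 11.9% and for lower values 10.4%. On pair means 3 members passed, all of them lower in psae2, beside 2.63% of all entries in either direction, 1.23% for higher and 1.4% for lower values. The same 3 passed both fits. Since the members were chosen for high WT values, a shortfall in psae2 was favoured by the choice itself. Among the 52 probes that remain when the first 60 are taken by the psae2 mean, 8 passed as higher and 5 as lower over 12 samples. By the mean over all 12 samples 6 passed as higher and 8 as lower, again of 52. On pair means these lists held 1 higher and 1 lower, and 0 higher and 2 lower.

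AT3G52070, AT4G39690 and AT1G13990 fell in psae2 by the criterion of both fits, but did not pass on pair means blocked by pair. AT3G52070, whose product has no role given here, had a lowest, median and highest intensity of 1.52, 1.82 and 2.18 in psae2 and of 3.06, 3.43 and 4.76 in the WT. The groups did not overlap. Its log2 difference was -1.10, a fold of 2.14, with a 95% interval on pair means of -1.57 to -0.63 (adjusted p = 0.000125 over 12 samples and 0.0455 on pair means). The difference was -1.66 for numbers 1 and 2, -0.98 for 3 and 4 and -0.66 for 5 and 6. Among psae2 samples, numbers 5 and 6 were the brightest, and among WT samples numbers 1 and 2 were.

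AT4G39690 encodes the Mic60 subunit of the complex that holds the cristae of the inner mitochondrial membrane in shape. Its lowest, median and highest intensity were 1.41, 1.54 and 1.76 in psae2 and 2.01, 2.33 and 2.46 in the WT, again without overlap. It averaged 1.55 ± 0.129 in psae2 and 2.26 ± 0.204 in the WT (SD of pair means, n = 3 each). The log2 difference was -0.62, with an interval of -0.88 to -0.36 (adjusted p = 4.4e-05 over 12 samples and 0.0435 on pair means). It was similar in the pairs, at -0.57, -0.79 and -0.50.

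AT1G13990, a gene without a role given here, had a lowest, median and highest intensity of 1.10, 1.12 and 1.27 in psae2 and of 1.43, 1.66 and 2.14 in the WT. No psae2 sample reached the lowest WT sample. The log2 difference was -0.64, with an interval of -0.91 to -0.37 (adjusted p = 4.14e-05 and 0.0435). In both groups numbers 1 and 2 were the brightest.

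These 3 calls on pair means lay close to the threshold and were lost with the values as deposited, where 0 members passed in limma, beside 0.964% of all entries, and 7 had an unadjusted p under 0.05. The adjusted p as deposited was between 0.0725 for AT3G52070 and 0.145 for AT1G13990. Pair means blocked by pair also ended all 3 calls, with an adjusted p of 0.0763 for AT3G52070, 0.0646 for AT4G39690 and 0.0553 for AT1G13990. Leaving out any 1 of 8 samples ended the call of AT3G52070 on pair means (adjusted p up to 0.0578), as did any 1 of 3 for AT1G13990 (up to 0.0563) and psae2 sample 6 for AT4G39690 (0.0528). After median centring 2 passed on pair means, AT4G39690 and AT1G13990, beside 1.99% of all entries. In a fit over all 12 samples that took the pairs as random blocks 4 members passed, all lower in psae2, beside 6.02% of all entries in either direction and 2.96% for lower values. They were AT3G52070, AT4G39690 and AT1G13990 (adjusted p 0.000992, 0.00206 and 0.0011) and AT3G03890 (0.028). The gene of AT3G52070 overlaps AT3G52072 and AT3G52075 in the reference annotation, and that of AT4G39690 overlaps AT4G39680. Of the members that passed over 12 samples only, AT3G03890 overlaps AT3G03880, AT2G19280 overlaps AT2G19290 and AT2G36480 overlaps AT2G08800. The sources used here do not say which strand the probes report, so signal of overlapping genes cannot be told apart. In bulk RNA, fewer cells of a type and less RNA per cell cannot be told apart either.

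**Figure D2:**
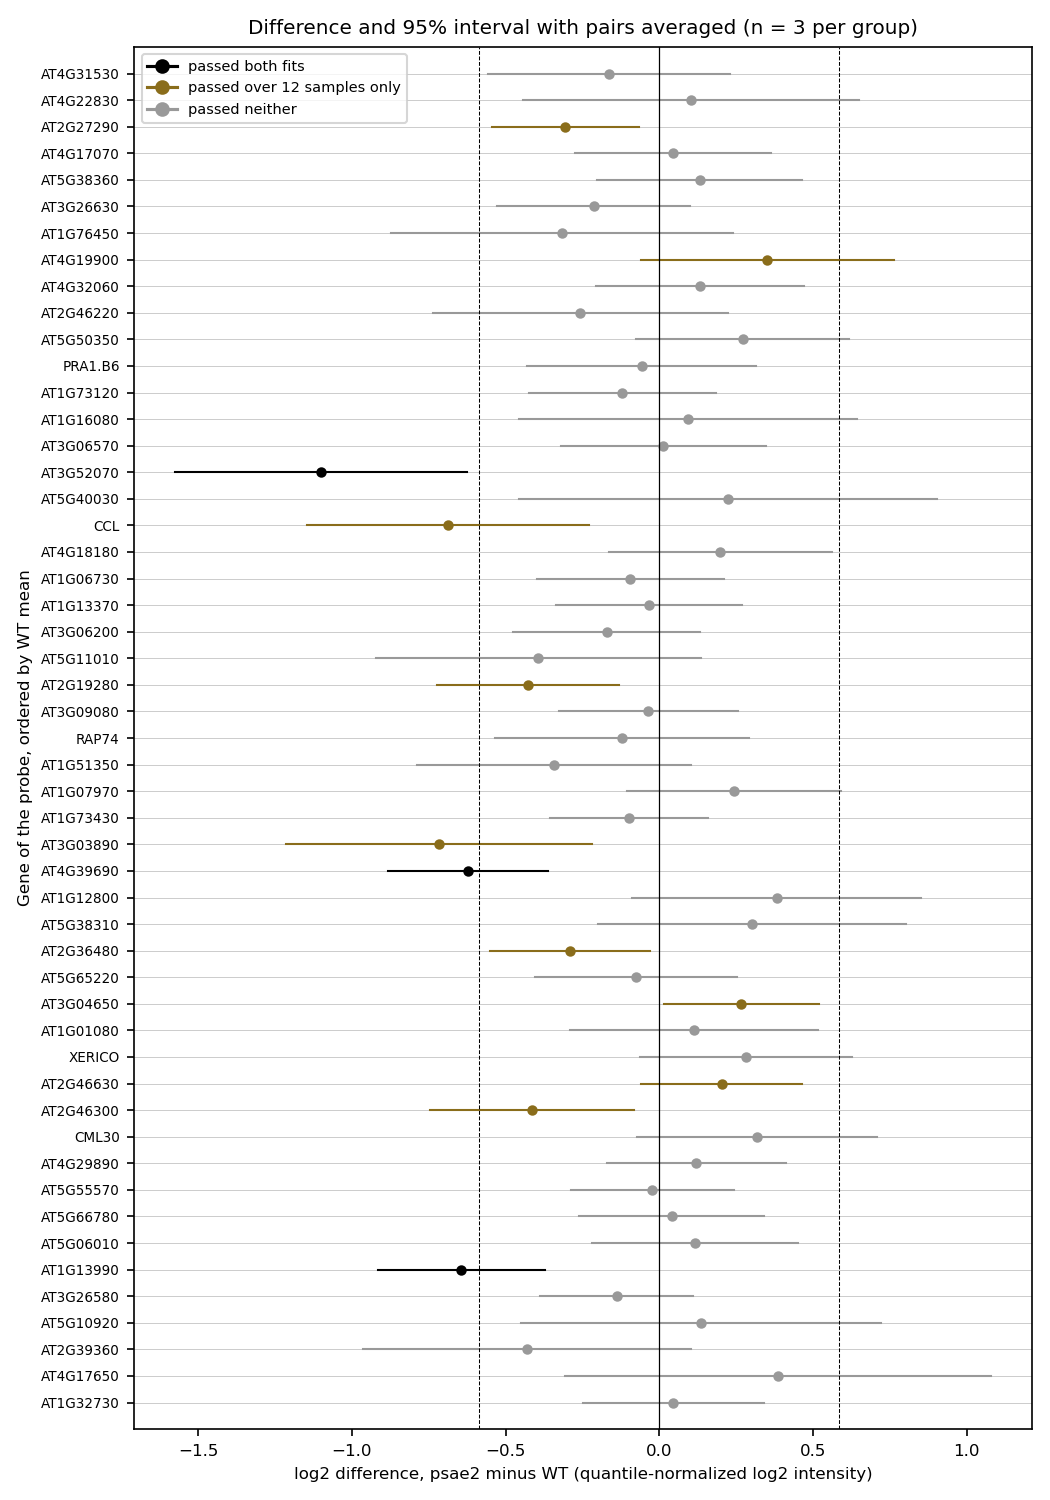
Log2 difference, psae2 minus WT, of each member (points) with its 95% interval from limma on pair means (lines), genes ordered by WT mean. Dashed lines mark a 1.5-fold difference either way. The intervals of AT3G52070, AT4G39690 and AT1G13990 lie wholly below 0 and are drawn in black for having passed both fits.

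Of the members, 14 encode proteins known or predicted to act in plastids. Over 12 samples 1 passed as higher and 2 as lower in psae2 and 11 did not pass, beside 22.3% of all entries that passed (11.9% higher, 10.4% lower). On pair means 0 of the 14 passed in limma, beside 2.63% of all entries, and 3 had an unadjusted p under 0.05. Their median log2 difference was -0.12, beside 0.01 over all entries, and ran from -0.72 to 0.38. The interval on pair means lay within 1.5-fold either way for 9 of them, beside 39.2% of the entries of 1 gene that are not members. Most of those entries are dimmer.

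AT4G31530, a dehydrogenase-like protein with a nucleotide-binding Rossmann fold, was the brightest member. Its lowest, median and highest intensity were 46.0, 49.3 and 52.1 in psae2 and 43.2, 53.5 and 65.1 in the WT. The WT range enclosed the psae2 range, and WT samples 3 and 4 were the highest. The log2 difference was -0.16, with an interval of -0.56 to 0.23 (adjusted p = 0.31 over 12 samples). The gene overlaps EXO70G1 in the annotation.

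AT4G22830, a relative of the algal plastid protein Ycf20, had a lowest, median and highest intensity of 40, 47.0 and 56.4 in psae2 and of 34.3, 49.3 and 56.8 in the WT. The groups overlapped over nearly their whole range. The pair means were 56.0, 47.0 and 40.5 in psae2 and 56.7, 49.3 and 36.1 in the WT, for numbers 1 and 2, 3 and 4, and 5 and 6. The spread among the pairs was thus much larger than the difference between the groups, which was 0.10 on the log2 scale (interval -0.44 to 0.65).

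AT2G27290, an uncharacterised membrane protein of the plastid, had a lowest, median and highest intensity of 30.5, 32.4 and 34.4 in psae2 and of 37.3, 39.3 and 43.8 in the WT. All psae2 samples lay below all WT samples. The log2 difference of -0.31 passed over 12 samples (adjusted p = 0.00284) and not on pair means (0.187; interval -0.54 to -0.07). For so bright a probe quantile normalization acts on ranks: it was rank 14 in all 6 psae2 arrays and therefore had 1 value in all of them, and 5 of 6 WT samples also shared a value. Its spread after normalization is understated for that reason. As deposited, the log2 difference was -0.29 with an adjusted p of 0.01 over 12 samples.

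AT3G26630, a pentatricopeptide repeat protein, had intensities of 8.33 to 10.4 in psae2 and 8.45 to 13.8 in the WT, with medians of 9.35 and 9.92. The groups overlapped, and WT samples 1 and 2 stood above the other samples. Its log2 difference of -0.21 did not pass over 12 samples (adjusted p = 0.0854), but did with sample number as a blocking factor (0.0493) and with median centring (-0.37, adjusted p = 0.00519). It did not pass on pair means blocked by pair (0.285). AT1G76450, a PsbP-domain protein of the thylakoid lumen, had 4.51 to 9.06 in psae2 and 6.59 to 11 in the WT, with medians of 7.0 and 7.05. In both groups numbers 1 and 2 were the brightest. Its log2 difference of -0.32 had an interval of -0.87 to 0.24, and with median centring of each array it passed over 12 samples (-0.48, adjusted p = 0.0229).

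AT3G03890, related to heme oxygenases and split-barrel flavin-binding proteins, had a lowest, median and highest intensity of 1.07, 1.26 and 2.17 in psae2 and of 1.91, 2.03 and 2.87 in the WT. Samples 1 and 2 of psae2 lay within the WT range and the other 4 below it. The log2 difference was -0.72, with an adjusted p of 0.00465 over 12 samples and 0.159 on pair means (interval -1.21 to -0.22). In the pairs of numbers it was -0.48, -0.77 and -0.91. Its SD over the 6 psae2 samples, 0.34 on the normalized log2 scale, was among the 5 largest of the members.

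AT3G04650, a flavin-dependent oxidoreductase, was the plastid member that passed as higher over 12 samples. Its lowest, median and highest intensity were 2.48, 2.58 and 2.80 in psae2 and 1.92, 1.98 and 2.15 in the WT, without overlap. The log2 difference was 0.27 (adjusted p = 0.0101 over 12 samples and 0.243 on pair means; interval 0.01 to 0.52). With median centring of each array it was 0.17 and did not pass (0.156).

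The plastid members of RNA and protein synthesis overlapped between the groups. AT5G65220, ribosomal protein L29 of the plastid, had 1.67 to 2.52 in psae2 and 1.77 to 2.32 in the WT, with a log2 difference of -0.08 (interval -0.40 to 0.25). AT1G01080, an RNA-binding protein of chloroplasts, had a difference of 0.11 (interval -0.29 to 0.52). AT1G12800, an S1-domain RNA-binding protein, had 2.30 to 3.91 in psae2 and 1.53 to 2.83 in the WT. Its difference of 0.38 did not pass over 12 samples (adjusted p = 0.072) and did with sample number as a blocking factor (0.00552). On pair means blocked by pair it did not pass (0.122). AT3G26580, a tetratricopeptide repeat protein, had a difference of -0.14 (interval -0.39 to 0.11), and with median centring of each array it passed over 12 samples (-0.26, adjusted p = 0.0164).

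The plastid enzymes of general metabolism did not pass either. AT1G06730, a carbohydrate kinase of the pfkB family, had a log2 difference of -0.09 (interval -0.40 to 0.21). AT3G06200, a guanylate kinase that phosphorylates GMP, had one of -0.17 (interval -0.47 to 0.13), and with median centring of each array it passed over 12 samples (-0.31, adjusted p = 0.00491). AT5G10920, argininosuccinate lyase of arginine synthesis, had 1.56 to 2.31 in psae2 and 1.10 to 2.50 in the WT. Its pair means were 2.31, 1.62 and 1.77 in psae2 and 2.43, 1.16 and 1.46 in the WT, so numbers 1 and 2 were the brightest in both groups.

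Of 146 genes listed for photosystems, electron transport, the Calvin cycle, plastid redox enzymes, plastid folding and proteolysis, plastid translation and chlorophyll synthesis, 13 had a probe of their own and 12 were tested. AT5G65220 was the only member among them. Over 12 samples 1 of the 12 passed as higher and 0 as lower, beside 11.9% and 10.4% of all entries. On pair means 0 of them passed, beside 2.63% of all entries. Most of the listed genes therefore have no single-gene probe here, and bright ones that have a probe were left out by the rule. The members do not stand for them.

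Besides AT4G39690, the mitochondrial members were AT4G32060 and AT4G17650. AT4G32060, the EF-hand protein that regulates calcium uptake into mitochondria, had a lowest, median and highest intensity of 6.94, 7.33 and 8.10 in psae2 and of 5.34, 5.60 and 8.50 in the WT. WT samples 1 and 2 were as high as psae2 and the other 4 lay below it. Its log2 difference was 0.13 (interval -0.20 to 0.47), and 0.27 without numbers 1 and 2 in either group, where it passed (adjusted p = 0.0138). AT4G17650, a lipid-binding protein related to Coq10 of ubiquinone function in yeast, had pair means of 2.61, 2.08 and 1.69 in psae2 and 2.28, 1.66 and 0.901 in the WT. Its difference of 0.39 had an interval of -0.31 to 1.08, which includes both no difference and one of more than 1.5-fold. With the replicate number as a block it passed over 12 samples (adjusted p = 0.0294), but not on pair means blocked by pair (0.198).

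Among 5 members of chromatin, transcription and RNA processing, log2 differences ran from -0.43 to -0.03 after quantile normalization, and as deposited AT1G13370 was at 0.02. Over 12 samples 2 passed as lower, beside 10.4% of all entries. On pair means 0 did in limma, beside 1.4% for lower values, and 2 had an unadjusted p under 0.05. AT2G19280, a pentatricopeptide repeat protein, had a lowest, median and highest intensity of 1.91, 2.13 and 2.39 in psae2 and of 2.27, 2.64 and 2.97 in the WT. The ranges overlapped only at their edges. Its difference was -0.43 (adjusted p = 0.00367 over 12 samples and 0.159 on pair means). AT2G36480, which has an ENTH/VHS domain, had a difference of -0.29 (0.00833 and 0.223), and as deposited -0.19, where it did not pass over 12 samples (0.206).

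AT5G11010, a relative of the Clp1 protein of pre-mRNA cleavage, had 1.41 to 3.05 in psae2 and 2.06 to 3.71 in the WT. Its difference of -0.39 did not pass over 12 samples (adjusted p = 0.0891) but passed with sample number as a blocking factor (0.00787) and without psae2 sample 2 (0.0342). It did not pass on pair means blocked by pair (0.125). RAP74, the large subunit of the general transcription factor TFIIF, had a difference of -0.12 (interval -0.53 to 0.29). AT1G13370, a histone H3 gene, had a lowest, median and highest intensity of 2.50, 2.80 and 3.07 in psae2 and of 2.30, 2.54 and 3.64 in the WT. Its difference of -0.03 had an interval of -0.33 to 0.27, among the 5 narrowest bounds of the members. Histone H3 genes are near-identical to each other, so signal of other copies cannot be told apart from that of AT1G13370.

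Of 4 members of the secretory pathway and cell wall, 1 passed as higher over 12 samples, beside 11.9% of all entries. On pair means 0 passed in limma, beside 2.63% of all entries, also 0 at an unadjusted p under 0.05. AT4G19900, a glycosyltransferase, had a lowest, median and highest intensity of 9.84, 10.9 and 11.3 in psae2 and of 6.63, 8.34 and 8.54 in the WT, without overlap. The log2 difference was 0.35 (adjusted p = 0.0494 and 0.331; interval -0.06 to 0.76). Leaving out any 1 of 10 samples ended the call over 12 samples (adjusted p up to 0.0975), and so did centring each array on its median (0.22, adjusted p = 0.251). PRA1.B6, a prenylated Rab acceptor of vesicle traffic, had a difference of -0.06 (interval -0.43 to 0.32). AT1G73430, a subunit of a Golgi tethering complex, had one of -0.10 (interval -0.36 to 0.16), and AT4G18180, a pectin lyase-like protein of the cell wall, one of 0.20 (interval -0.16 to 0.56; passed at an adjusted p of 0.0435 once blocked by sample number). AT4G18180 did not pass on pair means blocked by pair (0.29).

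Of 7 members with roles in signalling and in the response to light or stress, 2 passed as lower over 12 samples, beside 10.4% of all entries. On pair means 0 passed in limma, beside 2.63% of all entries (2 at an unadjusted p under 0.05). CCL, a light-regulated gene under control of the circadian clock, had a lowest, median and highest intensity of 1.51, 2.12 and 2.79 in psae2 and of 2.22, 3.36 and 4.63 in the WT. The ranges overlapped, but within each pair of numbers psae2 was below the WT, by -0.56, -0.75 and -0.74 on the log2 scale. The difference over all samples was -0.69 (adjusted p = 0.00596 over 12 samples and 0.146 on pair means; interval -1.14 to -0.23). The sources used here give no time of harvest, and its part in the level of this clock-controlled transcript was not tested.

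AT2G46300, of the late embryogenesis abundant hydroxyproline-rich family, had 1.09 to 1.80 in psae2 and 1.5 to 2.13 in the WT. Its difference was -0.41 (adjusted p = 0.00955 and 0.192), and as deposited -0.33, where it did not pass over 12 samples (0.0755). XERICO, a RING-finger protein that raises abscisic acid levels, had a lowest, median and highest intensity of 2.17, 2.54 and 3.21 in psae2 and of 1.90, 2.01 and 2.04 in the WT. The groups did not overlap, and WT samples were close together while psae2 samples 1 and 2 were the highest. Its difference of 0.28 had an adjusted p of 0.0551 over 12 samples, and as deposited it was 0.38 and passed (0.0114).

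CML30, a calmodulin-like calcium sensor, had 1.97 to 2.70 in psae2 and 1.58 to 2.26 in the WT, with a difference of 0.32 (adjusted p = 0.0544 over 12 samples; 0.0142 with sample number as a blocking factor). AT2G39360, a receptor-like kinase, had 1.09 to 1.48 in psae2 and 1.28 to 1.96 in the WT, with a difference of -0.43 (0.0772 over 12 samples; 0.00607 with the blocking factor). On pair means blocked by pair the adjusted p was 0.177 for CML30 and 0.108 for AT2G39360. AT5G40030, a protein kinase, had pair means of 4.74, 3.65 and 3.16 in psae2 and 5.34, 2.59 and 2.23 in the WT. Its interval, -0.46 to 0.90, was wide. AT3G06570, a kelch-repeat protein, had a difference of 0.01 (interval -0.32 to 0.35).

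Among 5 other enzymes and repeat proteins 0 passed over 12 samples in limma, beside 22.3% of all entries. An unadjusted p under 0.05 was found for 1 of them. AT4G17070, related to peptidyl-prolyl isomerases, had a lowest, median and highest intensity of 12.8, 20.9 and 23.6 in psae2 and of 11.1, 18.7 and 23.2 in the WT. Sample 5 was the lowest in each group. AT5G38360, a hydrolase-like protein, had 14.5, 16.3 and 18.4 in psae2 and 11.5, 12.4 and 16.9 in the WT, with a normalized log2 difference of 0.13 (interval -0.20 to 0.46). AT4G29890, a choline monooxygenase-like protein, had 2.05 to 2.24 in psae2 and 1.47 to 1.99 in the WT, without overlap as deposited. Its normalized difference was 0.12 (interval -0.17 to 0.41). AT3G09080, a WD-repeat protein, had one of -0.04 (interval -0.33 to 0.26), and AT1G51350, an armadillo-repeat protein, one of -0.34 (interval -0.79 to 0.10; 0.0047 with sample number as a blocking factor). For AT1G51350 the adjusted p on pair means blocked by pair was 0.13.

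A further 13 members have no role given here. Over 12 samples 1 of them passed as higher and 2 as lower, beside 22.3% of all entries in either direction. The 2 lower ones, AT3G52070 and AT1G13990, also passed on pair means, beside 2.63% of all entries. AT2G46630 was the higher one, with a lowest, median and highest intensity of 2.08, 2.32 and 2.77 in psae2 and 1.77, 1.87 and 2.08 in the WT. Its log2 difference was 0.20 (adjusted p = 0.0429 and 0.372), and leaving out any 1 of 10 samples ended the call over 12 samples (up to 0.0835), as did centring each array on its median (0.11, adjusted p = 0.288).

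AT5G50350 had 6.46 to 10.7 in psae2 and 5.04 to 7.02 in the WT, with a difference of 0.27 (adjusted p = 0.0837 over 12 samples; 0.0369 with sample number as a blocking factor). AT1G07970 had a difference of 0.24 (0.0873; 0.0334 with the blocking factor). On pair means blocked by pair the adjusted p was 0.199 for AT5G50350 and 0.241 for AT1G07970. AT2G46220 had 4.57 to 6.16 in psae2 and 4.13 to 8.52 in the WT, with a difference of -0.26 (interval -0.74 to 0.22). AT5G38310 and AT1G16080 had among the 5 largest SDs in psae2, 0.34 each on the normalized log2 scale. AT1G16080 had pair means of 5.11, 5.84 and 3.38 in psae2 and 4.49, 4.90 and 3.09 in the WT, with numbers 5 and 6 the dimmest in both groups. AT1G73120 had a difference of -0.12 (interval -0.42 to 0.18) and AT5G06010 one of 0.12 (interval -0.22 to 0.45).

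The most tightly bounded differences were those of AT5G55570 (-0.02; interval -0.29 to 0.24), AT3G09080, AT1G13370, AT1G32730 (0.05; -0.25 to 0.34) and AT5G66780 (0.04; -0.26 to 0.34). AT5G55570 had a lowest, median and highest intensity of 1.63, 1.94 and 2.1 in psae2 and of 1.72, 1.80 and 1.89 in the WT. In AT1G32730 the intensity averaged 1.75 ± 0.0141 in psae2 and 1.61 ± 0.159 in the WT (SD of pair means, n = 3 each). Over all members, the interval on pair means lay within 1.5-fold either way for 27 of 51, or 52.9%, beside 39.2% of the other 551 entries of 1 gene. Over 12 samples it did so for 35 members, or 68.6%, beside 58.8% of those other entries. For the remaining members a difference of 1.5-fold lay inside the interval or was exceeded. With the values as deposited, 15 members in place of 27 were so bounded. The other entries of 1 gene are mostly dimmer, so these shares do not compare like with like. In 6 bins by brightness, the median SD over psae2 samples was 0.39 in the dimmest and 0.17 in the brightest. The size of the log2 difference was under 0.2 for 25 members and over 0.5 for 5, namely AT3G52070, AT3G03890, CCL, AT1G13990 and AT4G39690.

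As a description, without a test, the spread among samples is given beside that of the other probes of 1 gene, most of which are dimmer. The median SD of the normalized log2 value over the 6 psae2 samples was 0.17 for members and 0.25 for the others, and over the 6 WT samples 0.15 and 0.18. Within the pairs of numbers the median SD of members was 0.08 in psae2 and 0.07 in the WT. The span between the highest and the lowest pair mean was 0.30 in psae2 and 0.32 in the WT. In 39 of 51 members that span, averaged over both groups, was larger than the difference between psae2 and WT, a share of 76.5% beside 75.0% of the other probes of 1 gene. The same pair was the highest in both groups for 26 members (51%, beside 53.0%), most often numbers 1 and 2, in 17 members. The fit with sample number as a blocking factor called more members, 22 of 51, beside 33.6% of all entries. Of these 9 were higher, beside 17.5%, and 13 lower, beside 16.1%. That fit counts repeats of a pair as independent, while on pair means blocked by pair 0 members passed in limma, beside 1.46% of all entries. There 16 had an unadjusted p under 0.05, a count without a share over all entries beside it.

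**Figure D3:**
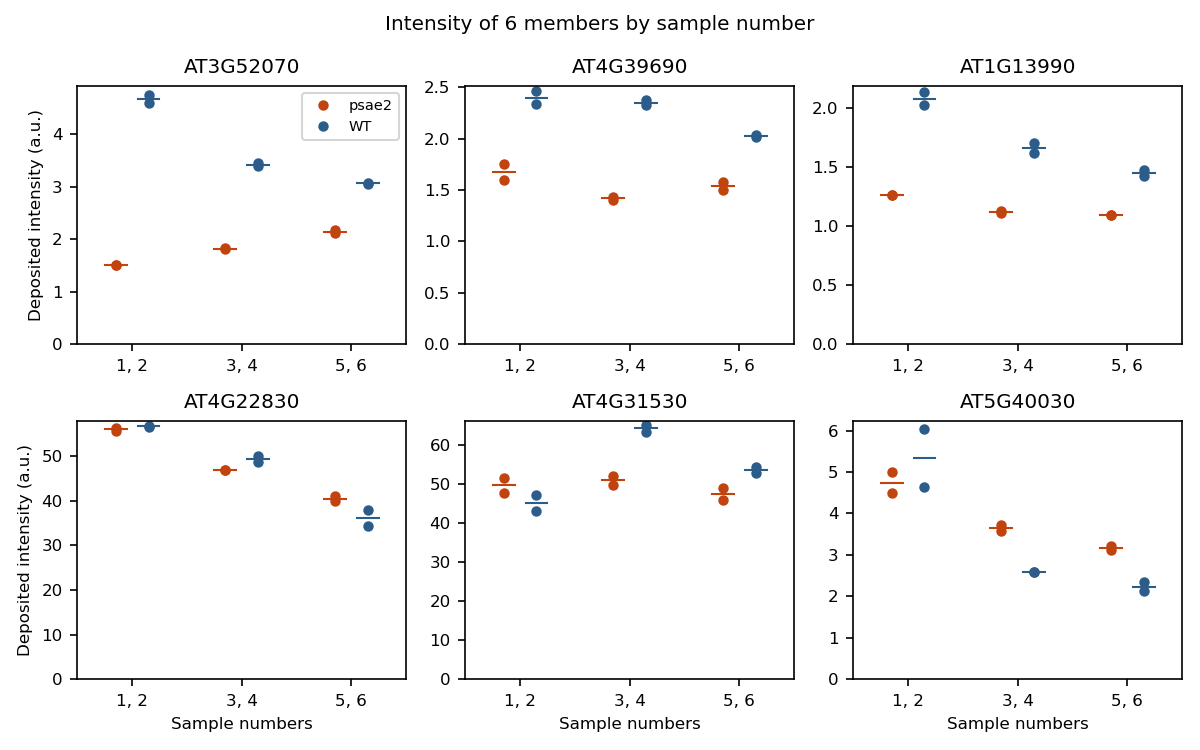
Deposited intensity (arbitrary units) of 6 members in samples numbered 1 and 2, 3 and 4, and 5 and 6, with psae2 left of WT. Points are samples and lines pair means. AT3G52070, AT4G39690 and AT1G13990 are lower in psae2 in every pair, while AT4G22830 has pair means of 56.0, 47.0 and 40.5 in psae2 and 56.7, 49.3 and 36.1 in the WT.

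The direction of small differences depended on scaling. As deposited, the median log2 difference of the members was 0.04, beside 0.18 for the other probes of 1 gene. It was -0.03 beside 0.02 after quantile normalization, and -0.17 beside -0.02 with median centring of each array. As deposited 30 members lay above 0 and 21 below, after quantile normalization 24 and 27, and with median centring 18 and 33. None of the 12 called members changed sign. With median centring, over 12 samples, 0 members passed as higher and 16 as lower in limma, beside 9.6% and 13.9% of all entries (23.5% in either direction). Those that passed with median centring but not after quantile normalization were AT3G26630, AT1G76450, AT3G06200, AT3G26580, AT5G11010, AT1G51350 and AT2G39360. As deposited 6 passed as higher and 8 as lower, beside 23.6% and 4.49% (28.1% in either direction). Those that passed as deposited but not after quantile normalization were AT5G50350, XERICO and CML30, higher in psae2, and AT2G39360, lower. In the deposited values the 2 groups did not overlap in 8 members, 4 higher and 4 lower in psae2, beside 15.4% of all entries.

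The same held when all 602 tested entries of 1 gene were divided into 6 bins by a mean over all 12 samples, which does not favour either group. The bins overlapped in mean deposited intensity, which ran from 0.0092 to 1.35 in the dimmest and from 0.958 to 51.8 in the brightest. As deposited, the median log2 difference was 0.30 in the dimmest bin, 0.19, 0.21, 0.13 and 0.17 in the bins between, and 0.05 in the brightest, which held all 51 members among 101 entries. In deposited units the median differences in these bins were 0.0330, 0.0358, 0.0547, 0.0476, 0.0899 and 0.0698. The median SD over psae2 samples was 0.39 in the dimmest bin and 0.17 in the brightest. After quantile normalization the bins' medians lay between -0.03 and 0.08.

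**Figure D4:**
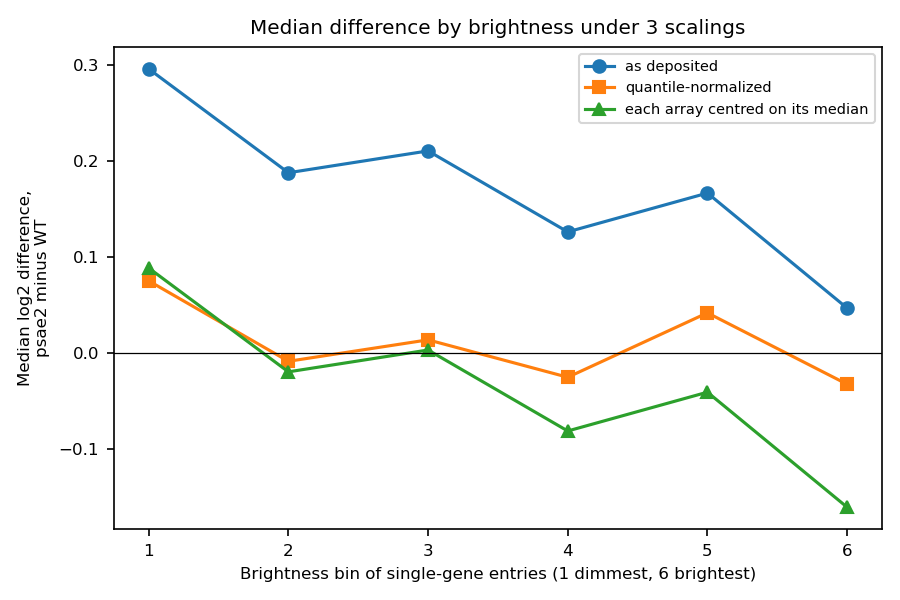
Median log2 difference, psae2 minus WT, of entries of 1 gene in 6 bins of brightness under 3 scalings. As deposited the dimmest bin is at 0.30 and the brightest, which holds the members, at 0.05. Quantile normalization brings all bins close to 0, and median centring puts the brightest bin at -0.16.

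The members were spread over all 5 nuclear chromosomes much as the probes of 1 gene were. Chromosomes 1 to 5 held 12, 9, 9, 10 and 11 members, or 23.5%, 17.6%, 17.6%, 19.6% and 21.6%. Of all matched probes of 1 gene they held 25.1%, 18.0%, 18.8%, 17.4% and 20.7%. In the reference annotation (TAIR10.1) the genes of 15 members, or 29.4%, overlapped another gene, beside 34.8% of all matched probes of 1 gene. The median gene length was 2090 bases for members and 2146 bases for all of them. By position, overlap and length of their genes the members thus lay close to the other probes of 1 gene, as a description without a test.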

How the data were processed

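The authors deposited intensity values on a linear scale, 1 column per sample and 0 columns without a sample. The sources used here do not describe their background correction or scaling, and values at exactly 0 made up 11.9% to 13.7% of a column. Groups and numbers come from the sample titles. Values under a floor, the 5th percentile of an array's positive values (0.0638 to 0.105), were raised to it, log2-transformed and quantile-normalized. Probes below the floor in every sample, 429 in number, were not tested, and the gene with 2 probes was averaged, leaving 3009 entries, 602 of them for 1 gene. limma 3.58.1 in R 4.3.3 (lmFit, eBayes) compared the groups over 12 samples without covariates, and again on means of pairs of numbers. P-values adjusted by Benjamini-Hochberg had a threshold of 0.05. They measure only the spread between these samples, which may be technical. Before use, the fits were run on simulated data, with a check that known differences were recovered in size. The check set no limit on false calls.

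Deviations from the group mean correlated at 0.345 to 0.535 between samples of the same number, and 12 of 12 samples correlated best with their own number in the other group. Pairs such as 1 and 2 of a group correlated at 0.238 to 0.708. What a number stands for is not in the labels. On this check the numbers were taken to pair the samples, and fits with the number as a block are given where they change a call.

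The members, lists, tests and pairs were chosen with earlier results of these data known. Named are the 10 brightest members, every member past the threshold, the 5 most tightly bounded, the 5 most variable in psae2, those at the edge, and examples of each functional group. Functional groups were assigned by hand after the members were known. Of 692 probes of 1 gene, 690 matched the reference table (TAIR10.1), the source of names, gene overlaps, lengths and chromosomes. Figures were drawn with matplotlib 3.10.9. No sequences are shown.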

Additional observations from a re-analysis of the deposited data

Results flagged for a closer look

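In 102 sets of 6 samples, 51 members in each of 2 groups, 4 samples lay apart from the other 5 by more than Dixon's limit for 6 samples on the normalized log2 scale. With 6 independent samples, chance flags about 1 in 20 sets. Neighbouring numbers resembled repeats here, so that rate cannot be set against the 4 flags. AT4G17070 was at 3.70 in psae2 sample 5 and at 4.26 to 4.46 in the other psae2 samples (ratio of gap to range 0.735). AT5G50350 was at 3.29 in psae2 sample 1 and between 2.70 and 2.88 elsewhere in psae2 (ratio 0.691). AT4G32060 was at 2.92 in psae2 sample 3 and between 2.81 and 2.85 elsewhere in psae2 (ratio 0.627). AT2G27290 was at 5.52 in WT sample 6, while the other 5 WT samples shared the value 5.32 (ratio 1), because quantile normalization gives arrays the same value at the same rank.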

How the results depend on the processing

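Among members, 12 calls over 12 samples turned into 22 when sample number was a replicate block, 4 when pairs were random blocks, 3 on pair means, 0 on pair means blocked by pair, and 6 without numbers 3 and 4. Leaving out 1 sample gave 10 to 13. Over all entries, 671 calls turned into 1010, 181, 79, 44 and 304 under these settings, and 559 to 686 with 1 sample left out. The 3 member calls on pair means turned into 0 as deposited, when blocked by pair, and without numbers 1 and 2, 3 and 4, or 5 and 6, where 2 pair means per group remain and 10, 3 and 9 members had an unadjusted p under 0.05 in limma. Leaving out 1 sample gave 1 to 3 of these calls, with 1 left without WT sample 5 or without psae2 sample 4, 5 or 6. The 27 members bounded within 1.5-fold turned into 42 with the replicate block, 15 as deposited and 10 without numbers 3 and 4 (26 to 29 with 1 sample left out). The members' median difference, -0.0333, was 0.0355 as deposited and -0.172 with median centring (-0.0538 to -0.0135 with 1 sample left out). Taking the first 30 in place of 60 leaves 25 members by construction. The other ways of ranking shared 46 to 51 members, and 49 to 51 with 1 WT sample left out. The first 60 of psae2 and WT shared 53 genes, and 52 to 53 with 1 sample left out. Of the calls over all entries, 358 of 671 were higher in psae2, against 711 of 846 as deposited and 289 of 707 with median centring. For the 29 members picked by the naming rule, 651 alternative values stayed on their side of the threshold, 66 lost the call, 8 gained it and 0 of those called changed sign. The other members are not in these counts. Some uncalled members did change sign with scaling, 6 as deposited and 6 with median centring. Apart from fewer samples or a shorter list, the cause was not tested. Choosing members by the psae2 mean or the mean over 12 samples for counting calls, and recounting on pair means under other scalings, were added after seeing the data.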
